A study of Mus musculus with 15 samples.

Results

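The collagen genes of the mouse were followed in the neonatal hippocampus. They were taken as every gene whose array symbol reads Col, a number, a and a number (Col1a1 to Col28a1), which gave 44 of the 19938 genes with a single-symbol probe set. Col6a5 and Col6a6 each had 2 probe sets, so that the 44 genes rested on 46 probe sets, and the brightest over all arrays was used for each gene. The measurements came from the right hippocampus of male C57BL/6 pups on postnatal day 9, with 3 pups in each of 5 groups. The groups were severe stress with morphine (SSM), severe stress with saline (SSS), mild stress with morphine (MSM), mild stress with saline (MSS) and untreated controls (CC). Morphine is an opioid analgesic and saline its vehicle. Treatments were given between day 5 and day 9, in litters culled to at most 7 pups per dam. The labels give no stress procedure, morphine dose or litter, and p-values therefore cover only the spread between these pups. Arrays are named by group and replicate number (SSM 1), numbered within the group. All levels are log2 intensities, and all differences are log2 differences ± standard error (SE) from limma.

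Collagens are extracellular proteins of several chains wound into a triple helix, and each gene encodes a single chain. Fibrillar collagens (types I, III, V) give connective tissue its strength and in the brain are made mainly by fibroblasts of the meninges and around larger vessels. Type IV collagen forms the network of the basement membrane beneath endothelium and at the brain surface, where types XV and XVIII are also found. Neurons make a few collagens themselves. Among these, type XIX is produced by interneurons of the mouse hippocampus and takes part in forming inhibitory synapses, and type XXV is a transmembrane collagen of neurons. By structure the 44 genes fell into 11 fibrillar, 6 basement membrane, 2 multiplexin, 9 FACIT (fibril-associated, with interrupted helices), 6 beaded filament, 4 transmembrane, 4 anchoring or short-chain and 2 other collagens. By usual source, 11 were listed as meningeal, 4 as vascular and 3 as neuronal.

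Promoter sequences are shown for genes whose levels moved together across arrays or that start head to head. They come from RefSeq, build GRCm38.p6, in which 35 of the 44 genes had 38 windows running 250 bases before to 50 bases after a start. Capitals mark the letters of 3 motifs searched on either strand, the CCAAT box, the TATA box (letters TATAAA) and the GC box (letters GGGCGG). No motif base in the printed Col1a2 and Col3a1 stretches belonged to more than 1 motif. The first sequences are the 250 bases before the start of Col1a2 (chr6:4505368-4505617, plus strand) and of Col3a1 (chr1:45311288-45311537, plus strand), the pair of fibrillar chains that followed Col1a1. The third is the stretch from the start of Col4a1, on the minus strand, to that of Col4a2, on the plus strand. These starts lie head to head within 22 bases (chr8:11312805-11312826, printed on the plus strand). Each gene runs across the start of the other, so the stretch lies within both genes rather than between them.
Col1a2: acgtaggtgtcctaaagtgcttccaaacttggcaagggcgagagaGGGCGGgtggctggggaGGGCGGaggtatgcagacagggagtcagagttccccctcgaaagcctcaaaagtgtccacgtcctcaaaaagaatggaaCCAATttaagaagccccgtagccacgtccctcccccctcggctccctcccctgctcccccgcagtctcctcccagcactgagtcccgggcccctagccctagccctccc
Col3a1: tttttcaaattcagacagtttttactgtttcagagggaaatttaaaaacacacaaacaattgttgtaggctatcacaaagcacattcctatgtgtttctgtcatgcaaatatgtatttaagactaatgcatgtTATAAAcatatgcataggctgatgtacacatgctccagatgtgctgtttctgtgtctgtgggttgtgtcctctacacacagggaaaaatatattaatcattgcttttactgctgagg
Col4a1 and Col4a2: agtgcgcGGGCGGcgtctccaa
The Col1a2 stretch held GGGCGG 205 and 188 bases before the start and CCAAT 109 bases before it. The Col3a1 stretch held TATAAA 117 bases before the start and neither of the other motifs. Over whole windows, CCAAT was found in 13 of 38 collagen windows (34.2%) and in 37.4% of the 32851 windows in the table. TATAAA was found in 5 of 38 (13.2%), against 13.6% of all windows, and GGGCGG in 23 of 38 (60.5%), against 35.7%. The windows of Col4a1 and Col4a2 share 78 bases.

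The 15 arrays correlated with one another at 0.990 to 0.998 across all genes, and several of them stood apart in ways that touch the collagens. SSM 3 was the highest array for 9744 of the 19938 genes, with a median deviation of 0.15 from the gene means. MSM 3 had the lowest mean level of 8 hippocampal neuron markers, 8.36 against 8.92 to 9.52 on the other arrays, and SSM 1 had the next lowest. The mean of 14 choroid plexus markers, genes of the epithelium that makes cerebrospinal fluid, was 5.39 on SSS 2, 5.46 on MSS 1 and 5.38 on MSS 2, against 6.25 to 7.28 on the other 12. The titles also carry an SS number of unstated meaning that is nested in the stress level. Severe against mild stress and each treated group against CC therefore cannot be told apart from it. MSM and MSS share 1 number, but SSM 1 to 3 carry 8, 9 and 9 and SSS 1 to 3 carry 10, 10 and 8. SSM against SSS, the averaged morphine comparison and the interaction are therefore partly mixed with it too. In these bulk samples, fewer cells of a type and less RNA per cell cannot be told apart.

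Type I and type III collagen, the fibrils of the meninges, varied widely between pups of the same group. Col1a1, the alpha 1 chain of type I collagen, measured 8.03, 8.94 and 8.89 in SSM, 8.66, 8.23 and 9.11 in SSS, 8.85, 8.63 and 9.32 in MSM, 8.92, 8.92 and 8.90 in MSS, against 8.81, 9.00 and 8.52 in CC. Col1a2, its alpha 2 chain, measured 7.89, 8.84 and 8.86 in SSM, 8.52, 7.85 and 9.03 in SSS, 8.78, 8.38 and 9.20 in MSM, 8.84, 8.46 and 8.72 in MSS, against 8.62, 9.02 and 8.48 in CC. Col3a1, the single chain of type III collagen, measured 7.14, 8.09 and 8.18 in SSM, 7.71, 7.24 and 8.16 in SSS, 7.88, 7.82 and 8.44 in MSM, 8.03, 7.68 and 7.89 in MSS, against 7.88, 8.04 and 7.65 in CC. On all 3 genes SSM 1 and SSS 2 were the lowest arrays and MSM 3 the highest, and every group overlapped every other. Each gene ranged over 1.30 to 1.34 log2 units. Their SD within groups was 0.36, 0.43 and 0.38, higher than for 98.6%, 99.2% and 98.8% of all genes. Group means of Col1a1 were 8.62 ± 0.51 in SSM, 8.67 ± 0.44 in SSS, 8.93 ± 0.35 in MSM and 8.91 ± 0.011 in MSS, against 8.77 ± 0.24 in CC (SD, n = 3 each). The F-test over the 5 groups gave unadjusted p = 0.63 for Col1a1 and 0.81 for Col1a2 (limma).

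**Figure D1:**
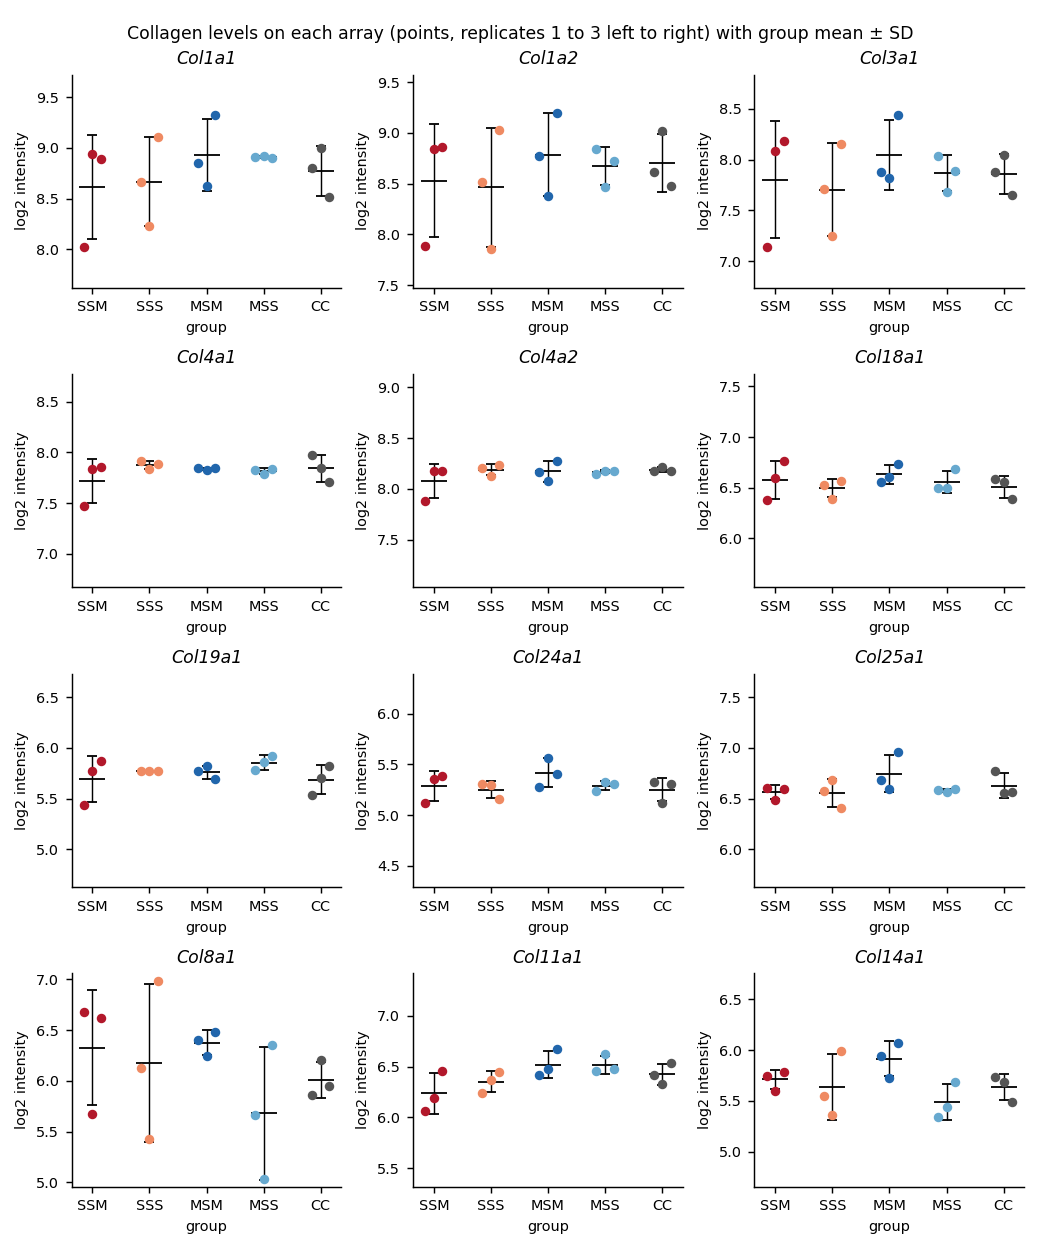
Log2 intensity (vertical axes, all of the same span) of 12 collagen genes in the 5 groups (horizontal axes), with a point for each array and bars for the group mean ± SD (n = 3). Col1a1, Col1a2 and Col3a1 spread over 1.30 to 1.34 units with SSM 1 and SSS 2 low, while Col4a1 and Col4a2 spread little apart from SSM 1.

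The other meningeal collagens spread less. Col5a1 and Col5a2, chains of the type V collagen that nucleates type I fibrils, were lowest on SSM 1, at 5.90 and 5.88. Col6a3, the long chain of the type VI beaded filament, measured 5.60, 5.88 and 5.88 in SSM, 5.95, 5.74 and 5.96 in SSS, 5.91, 5.83 and 6.30 in MSM, 5.90, 5.78 and 5.90 in MSS, against 5.92, 5.88 and 5.72 in CC. MSM 3 stood above every other array on this gene and SSM 1 below, and the groups overlapped. Its partners Col6a1 and Col6a2 were highest on MSS 1, at 7.82 and 7.22. Col12a1, a FACIT collagen found on type I fibrils, was lowest on SSM 1 at 5.49 and otherwise lay between 5.65 and 5.97. Col13a1, a transmembrane collagen of the neuromuscular junction, was lowest on SSM 1 and highest on MSS 3. Col14a1, another FACIT collagen of type I fibrils, measured 5.75, 5.60 and 5.78 in SSM, 5.55, 5.36 and 6.00 in SSS, 5.95, 5.73 and 6.07 in MSM, 5.34, 5.44 and 5.68 in MSS, against 5.73, 5.68 and 5.49 in CC. It was highest on MSM 3 and lowest on MSS 1, SSS 2 and MSS 2, the arrays with low choroid plexus markers.

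Over the 11 meningeal collagens, SSM 1 was the lowest array for 8 and MSM 3 the highest for 5. The mean of the 11 was 6.54 on SSM 1 and 6.63 on SSS 2, against 6.76 to 7.12 on the other 13 arrays. Non-collagen markers of meninges and fibroblasts were low on the same pair of arrays. Their mean over 12 markers was 6.43 on SSM 1 and 6.59 on SSS 2, against 6.69 to 7.33 elsewhere. SSM 1 was the lowest array for 7 of the 12 and SSS 2 for 4. Decorin (Dcn), a proteoglycan that binds type I fibrils, was 7.38 on SSM 1, against 8.42 to 9.71 on the others, and Slc6a13, a GABA and taurine transporter of the meninges, was 6.52 there, against 7.19 to 8.47. The markers and the collagens did not share their highest arrays: MSS 1 was highest for 5 of the markers and CC 2 for 4, and MSM 3 for 1. What part the amount of meninges on each hippocampus had in the collagen levels was not tested.

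**Figure D2:**
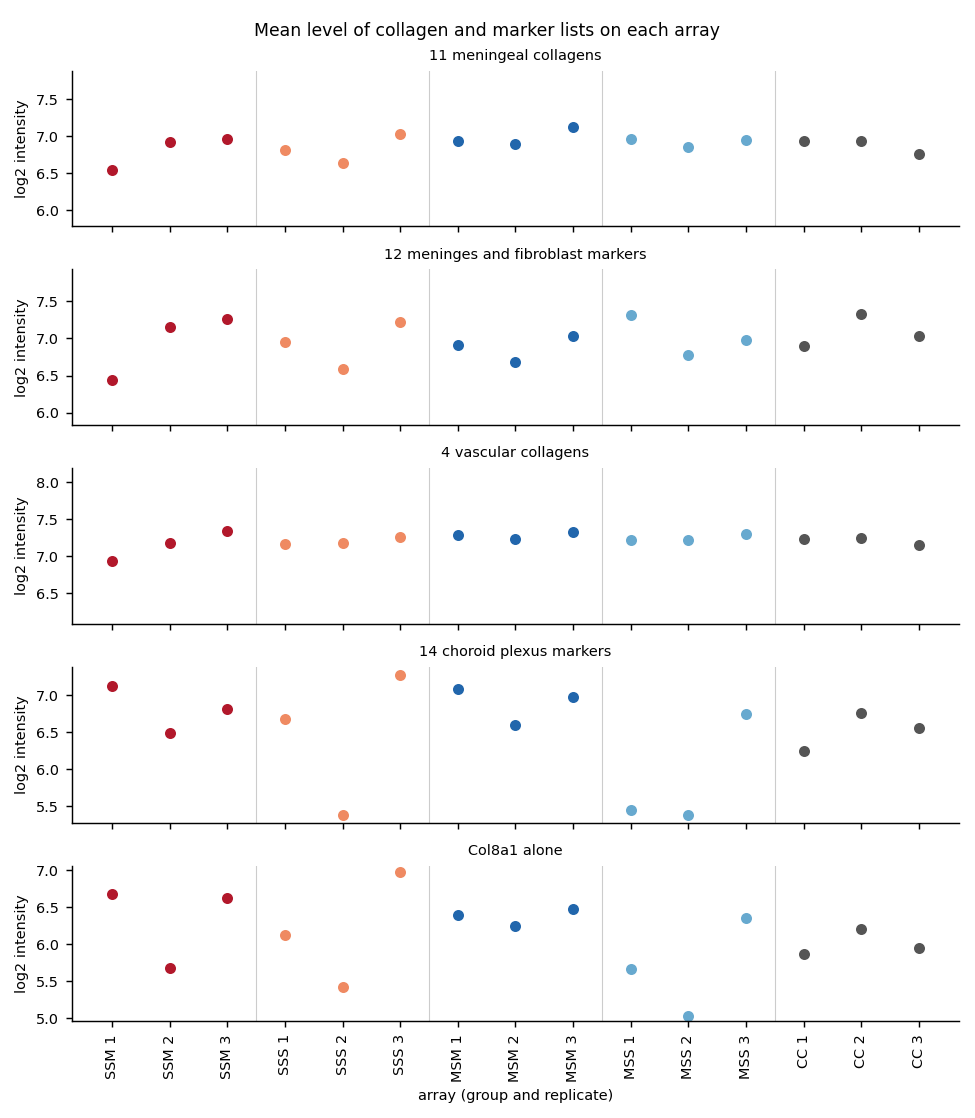
Mean log2 intensity (vertical axes, all of the same span) on each of the 15 arrays (horizontal axis) of the 11 meningeal collagens, 12 meninges and fibroblast markers, 4 vascular collagens and 14 choroid plexus markers, and of Col8a1 alone. SSM 1 and SSS 2 are the lowest arrays in the top pair of panels, and SSS 2, MSS 1 and MSS 2 are low for choroid plexus and Col8a1.

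The 4 vascular collagens ranged over 0.38 to 0.58 log2 units, with a median of 0.45 against 0.48 over all 44. Col4a1, which with Col4a2 forms the main type IV network of vessels, measured 7.47, 7.84 and 7.86 in SSM, 7.91, 7.83 and 7.88 in SSS, 7.84, 7.83 and 7.84 in MSM, 7.83, 7.78 and 7.83 in MSS, against 7.97, 7.85 and 7.70 in CC. Col4a2 measured 7.88, 8.18 and 8.18 in SSM, 8.21, 8.12 and 8.23 in SSS, 8.17, 8.07 and 8.28 in MSM, 8.15, 8.18 and 8.18 in MSS, against 8.18, 8.22 and 8.18 in CC. SSM 1 was the lowest array on both, and without it every array lay between 7.70 and 7.97 for Col4a1 and between 8.07 and 8.28 for Col4a2. The 3 SSS arrays lay above the 3 MSS arrays for Col4a1 only in the fourth decimal (lowest SSS 7.8347, highest MSS 7.8345), which is practically a tie. All other pairs of groups overlapped on both genes. Col18a1, whose end fragment is the vessel inhibitor endostatin, measured 6.38, 6.59 and 6.76 in SSM, 6.53, 6.39 and 6.56 in SSS, 6.56, 6.60 and 6.74 in MSM, 6.50, 6.49 and 6.69 in MSS, against 6.59, 6.56 and 6.39 in CC. Its groups overlapped, with SSM 1 lowest and SSM 3 highest. Col15a1, the related multiplexin, chosen for display after its values were seen, measured 6.00, 6.10 and 6.57 in SSM, 6.01, 6.35 and 6.35 in SSS, 6.55, 6.43 and 6.44 in MSM, 6.40, 6.40 and 6.51 in MSS, against 6.19, 6.38 and 6.35 in CC. Here 3 of the 6 severe stress arrays (SSM 1, SSM 2 and SSS 1) were the lowest of all 15. The MSM and MSS arrays all lay above the SSS and the CC arrays, while SSM overlapped every group. All 4 vascular collagens were lowest on SSM 1, as were 7 of 11 endothelial markers. The tight junction gene Cldn5 was 9.16 on SSM 1, against 9.33 to 9.55 elsewhere. The endothelial list as a whole did not single it out: its mean was 7.11 on SSM 1, 7.08 on SSS 2 and 7.09 on MSS 2, against 7.12 to 7.30 on the other 12 arrays.

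The remaining type IV chains are known from kidney (Col4a3, Col4a4, Col4a5) and smooth muscle (Col4a6) basement membranes. They ranged over 0.33 to 0.35 log2 units, and the F-test p of all 6 type IV genes was 0.51 or higher.

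Of the neuronal collagens, Col19a1 measured 5.44, 5.77 and 5.87 in SSM, 5.77, 5.77 and 5.77 in SSS, 5.77, 5.82 and 5.69 in MSM, 5.78, 5.86 and 5.92 in MSS, against 5.53, 5.71 and 5.83 in CC. The 3 SSS arrays and 2 others gave the identical value of 5.77, SSM 1 was lowest and MSS 3 highest, and the SSS arrays lay below the MSS arrays. Col25a1 measured 6.61, 6.48 and 6.60 in SSM, 6.57, 6.68 and 6.40 in SSS, 6.69, 6.60 and 6.95 in MSM, 6.58, 6.57 and 6.60 in MSS, against 6.77, 6.55 and 6.56 in CC. MSM 3 stood highest, and the groups overlapped. Col24a1, a fibrillar chain listed here as neuronal, measured 5.12, 5.36 and 5.39 in SSM, 5.30, 5.30 and 5.15 in SSS, 5.28, 5.56 and 5.41 in MSM, 5.24, 5.33 and 5.30 in MSS, against 5.33, 5.12 and 5.30 in CC. On Col24a1 SSM 1 and CC 2 were lowest and MSM 2 highest, and the groups overlapped. Each of the 3 spread over 0.45 to 0.55 log2 units, and their F-test p values were 0.28 or higher. SSM 1, lowest for Col19a1 and Col24a1, and MSM 3, highest for Col25a1, were the lowest arrays for hippocampal neuron markers. The mean of 8 interneuron markers was 9.59 on SSM 1 and 9.43 on MSM 3, against 8.97 to 9.43 elsewhere, and the part of either list in these levels was not tested.

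Col8a1, a short-chain collagen that forms lattices in vessel walls and beneath some epithelia, had the widest spread of all 44 genes, and it too was chosen for display after its values were seen. It measured 6.68, 5.67 and 6.62 in SSM, 6.13, 5.43 and 6.98 in SSS, 6.40, 6.24 and 6.48 in MSM, 5.66, 5.04 and 6.35 in MSS, against 5.86, 6.21 and 5.95 in CC. The range was 1.94 log2 units and the SD within groups 0.53, above 99.6% of all genes. The 3 arrays with low choroid plexus markers held its 3 lowest values, and SSS 3, the highest for choroid plexus, was also its highest. MSM and CC did not overlap, and the other pairs of groups did. SSM 2 was nearly as low for Col8a1 (5.67) but not for the choroid plexus markers (6.49). Its partner chain Col8a2 was 5.70 on MSS 1 and lay between 6.17 and 6.61 on the other 14 arrays. The part of choroid plexus in these levels was not tested.

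Other classes were described by their members of widest range. Col9a3, a chain of the cartilage FACIT type IX, measured 7.67, 7.23 and 7.36 in SSM, 7.20, 7.31 and 7.38 in SSS, 7.46, 7.55 and 7.67 in MSM, 6.92, 7.28 and 7.49 in MSS, against 7.62, 7.34 and 7.16 in CC. MSS 1 was lowest, and SSM 1 and MSM 3 were highest and nearly equal. Col6a6, an alternative type VI chain, measured 6.00, 5.92 and 6.35 in SSM, 6.41, 6.28 and 6.09 in SSS, 6.21, 6.59 and 6.24 in MSM, 5.97, 6.57 and 6.24 in MSS, against 6.36, 5.89 and 6.34 in CC, with the low and high arrays spread over every group. Col23a1, a transmembrane collagen, measured 6.58, 6.84 and 7.17 in SSM, 6.95, 6.93 and 6.90 in SSS, 6.69, 6.85 and 6.84 in MSM, 6.90, 6.84 and 6.84 in MSS, against 6.71, 6.83 and 6.88 in CC, so that SSM held both its lowest and its highest array. Col11a1, a fibrillar chain of cartilage that was displayed after its values were seen, measured 6.07, 6.19 and 6.45 in SSM, 6.24, 6.37 and 6.45 in SSS, 6.41, 6.47 and 6.67 in MSM, 6.45, 6.62 and 6.47 in MSS, against 6.41, 6.33 and 6.53 in CC. SSM 1, SSM 2 and SSS 1 were the lowest arrays. The SSS arrays lay below the MSS arrays by a thin margin (highest SSS 6.449, lowest MSS 6.454).

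The rest are given by their ranges over the 15 arrays. Among fibrillar chains, Col2a1 and Col27a1 of cartilage, Col5a3 and Col11a2 ranged over 0.33 to 0.48 log2 units. The FACIT collagens Col9a1, Col9a2, Col16a1, Col20a1 and Col22a1 (the last of muscle-tendon junctions) ranged over 0.33 to 0.51. Among type VI chains, Col6a4 and Col6a5 ranged over 0.36 to 0.47. The skin and cartilage collagens Col7a1 (anchoring fibrils), Col10a1 (hypertrophic cartilage) and Col17a1 (hemidesmosomes) ranged over 0.27 to 0.40. Col26a1 was 8.26 on MSM 3 and 7.30 to 7.83 on the other 14 arrays, and Col28a1, a collagen of peripheral nerve, ranged over 0.59.

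SSM 1 was the lowest array for 24 of the 44 collagens (54.5%) and for 2192 of the 19938 genes. SSM 3 was the highest for 11 collagens, MSM 3 for 10 and MSM 2 for 7, beside 48.9%, 7.63% and 3.98% of all genes. The SD within groups of 38 of the 44 collagens was above the median of all genes, 0.10. Differences between group means made up a median of 22.3% of the variance of a collagen gene, against 28.8% over all genes. These shares are not corrected for the number of groups. Means of so few pups differ through the spread between pups alone, which also enters the shares. Neither share is therefore read as a part of the variance due to treatment. By group means, MSM was the highest of the 5 groups for 25 of 44 collagens and SSM the lowest for 20. Over all genes MSM was the highest group for 14.2%, and SSM the highest for 53.7% and the lowest for 9.08%.

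**Figure D3:**
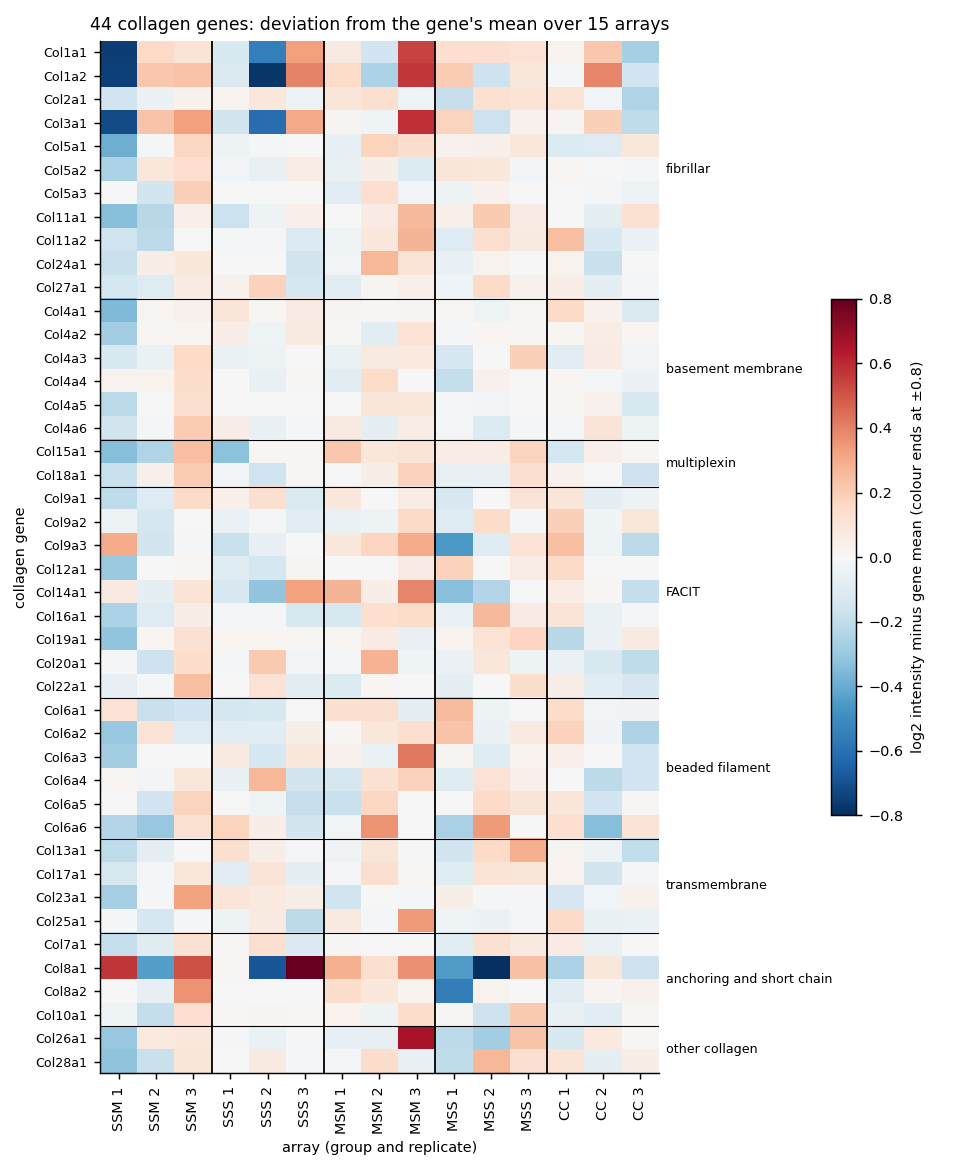
Deviation of each of the 44 collagen genes (rows, grouped by class) from its mean over the 15 arrays (columns, grouped by treatment), in log2 units with colours ending at ±0.8. SSM 1 is the lowest array for 24 genes, MSM 3 the highest for 10, and Col1a1, Col1a2 and Col3a1 share one pattern with SSM 1 and SSS 2 low.

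No collagen gene differed between any of the 5 groups at an adjusted p under 0.05 (limma, Benjamini-Hochberg over all genes). The F-test called 0 of the 44, and 0% of all genes. At an unadjusted p under 0.05 it called 0 of the 44, beside 7.24% of all genes, and the smallest p was that of Col11a1 (0.060, adjusted 0.72). In each of the 12 comparisons 0 of the 44 passed the adjusted threshold, beside 0% of all genes in 11 of them and 0.01% (2 genes) in severe against mild stress.

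The first question was what each treatment did relative to untreated pups, and the 4 comparisons share the CC arrays. In MSS against CC, 32 collagens had higher and 12 lower means, with a median difference of 0.037 against -0.0024 over all genes. At an unadjusted p under 0.05 stood 0 of 44 collagens, beside 2.22% of all genes. The smallest p values among the higher genes belonged to Col13a1 (0.17 ± 0.098), Col19a1 (0.17 ± 0.098) and Col6a4 (0.14 ± 0.11), and among the lower genes to Col8a2 (-0.16 ± 0.13), Col14a1 (-0.15 ± 0.14) and Col9a3 (-0.15 ± 0.15). Col19a1, the interneuron collagen, thus stood among the highest and the short-chain Col8a2 among the lowest, and neither passed.

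In MSM against CC, 37 were higher and 7 lower, with a median of 0.088 against -0.0015 over all genes. Again 0 of 44 reached an unadjusted p under 0.05, beside 2.76% of all genes. The higher genes with the smallest p were Col20a1 (0.20 ± 0.097), Col14a1 (0.28 ± 0.14) and Col24a1 (0.17 ± 0.088), and the lower ones Col9a2 (-0.064 ± 0.079), Col5a2 (-0.041 ± 0.086) and Col12a1 (-0.029 ± 0.084). Without MSM 3 and SSM 1, 31 were higher and 13 lower, with a median of 0.037. Col20a1 and Col14a1 are FACIT collagens, and the lower ones lay within 0.064 of CC.

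In SSS against CC, 22 collagens were higher and 22 lower, or 29 higher and 15 lower after quantile normalization, and 0 of 44 reached an unadjusted p under 0.05, beside 2.03% of all genes. The higher genes were led by Col20a1 (0.18 ± 0.097), Col6a4 (0.14 ± 0.11) and Col13a1 (0.13 ± 0.098), and the lower ones by Col9a2 (-0.14 ± 0.079), Col12a1 (-0.13 ± 0.084) and Col6a1 (-0.12 ± 0.097). In SSM against CC, 17 were higher and 27 lower, with a median of -0.027, while all genes had a median of 0.062. None of the 44 reached an unadjusted p under 0.05, beside 9.01% of all genes. The higher genes were led by Col6a4 (0.15 ± 0.11), Col22a1 (0.11 ± 0.088) and Col4a4 (0.082 ± 0.071), and the lower ones by Col11a1 (-0.19 ± 0.10), Col9a2 (-0.14 ± 0.079) and Col12a1 (-0.15 ± 0.084). The direction of this split rested on SSM 1: without it and MSM 3, 32 were higher and 12 lower. SSM in that fit rested on SSM 2 and SSM 3, the highest array for 9744 of the 19938 genes. The lower count was 30 after quantile normalization and 36 after median centring, and 3 and 5 collagens then were lower at an unadjusted p under 0.05. Among them after median centring were Col11a1 (limma, unadjusted p = 0.015) and Col9a2 (limma, unadjusted p = 0.020). None passed the adjusted threshold. The shares of all genes in the rescaled fits are not given here, so those counts are not read as a trait of the collagens.

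With the 4 treated groups averaged against CC, 29 were higher and 15 lower, the median was 0.019 against 0.015 over all genes, and 0 of 44 reached an unadjusted p under 0.05, beside 1.86% of all genes. The higher genes were led by Col20a1 (0.15 ± 0.077), Col6a4 (0.15 ± 0.084) and Col13a1 (0.092 ± 0.077), and the lower ones by Col9a2 (-0.10 ± 0.062), Col12a1 (-0.069 ± 0.066) and Col4a2 (-0.039 ± 0.060).

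**Figure D4:**
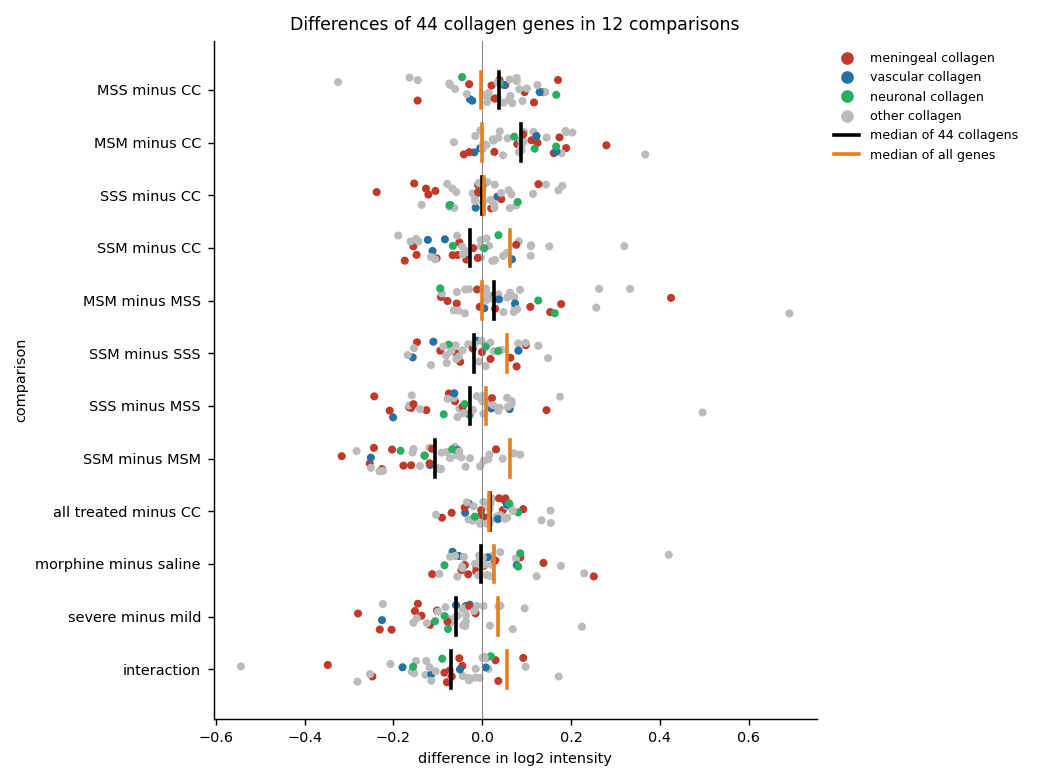
Difference in log2 intensity (horizontal axis) of each of the 44 collagen genes (points, coloured by usual source) in the 12 comparisons (rows), with the median of the collagens in black and of all 19938 genes in orange. In SSM minus MSM and in severe minus mild 37 of 44 collagens lie below 0 while the median of all genes lies above it, and none passes the adjusted threshold.

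The second question was what morphine did at the same level of stress. Under mild stress, MSM against MSS, 2 collagens had higher means at an unadjusted p under 0.05, beside 1.58% of all genes, and 0 lower, beside 0.988%. Both are FACIT collagens: Col14a1 at 0.43 ± 0.14 (unadjusted p = 0.0086, adjusted p = 0.999634) and Col9a3 at 0.33 ± 0.15 (unadjusted p = 0.037, adjusted p = 0.999634). For Col14a1 all 3 MSM arrays lay above all 3 MSS arrays, and for Col9a3 the groups overlapped. MSS 1 and MSS 2 were the arrays with low choroid plexus markers, whose 14 members were all higher in MSM than in MSS, with a median difference of 0.93. Without MSS 1, MSS 2 and SSS 2 the difference of Col14a1 was 0.23 (unadjusted p = 0.21) and that of Col9a3 0.068 (unadjusted p = 0.72). MSS then rests on 1 array, assumed to vary like the others.

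Over all collagens, 31 were higher and 13 lower in MSM than in MSS, with a median of 0.027. The higher genes with the smallest p were Col14a1 (0.43 ± 0.14), Col9a3 (0.33 ± 0.15) and Col8a2 (0.26 ± 0.13), and the lower ones Col5a2 (-0.093 ± 0.086), Col19a1 (-0.095 ± 0.098) and Col6a5 (-0.091 ± 0.10). Under severe stress, SSM against SSS, 17 were higher and 27 lower, with a median of -0.020 against 0.056 over all genes. None of the 44 reached an unadjusted p under 0.05, beside 9.37% of all genes. The higher genes were led by Col4a4 (0.081 ± 0.071), Col9a3 (0.13 ± 0.15) and Col18a1 (0.082 ± 0.095), and the lower ones by Col4a1 (-0.16 ± 0.090), Col13a1 (-0.15 ± 0.098) and Col4a2 (-0.11 ± 0.076). Both chains of vascular type IV collagen were thus among the lowest, and on both SSM 1 was the lowest array: Col4a1 averaged 7.72 ± 0.22 in SSM and 7.88 ± 0.040 in SSS, and Col4a2 8.08 ± 0.17 in SSM and 8.19 ± 0.056 in SSS (SD, n = 3 each). Without SSM 1 the difference was -0.031 for Col4a1 (unadjusted p = 0.67), against -0.16 ± 0.090 with it, and -0.013 for Col4a2 (unadjusted p = 0.84), against -0.11 ± 0.076 with it. The split of all collagens turned too, to 27 higher and 17 lower (median 0.033) without SSM 1, and was 4 higher and 40 lower (median -0.096) without SSM 3. After quantile normalization 34 were lower and after median centring 36. Of these, 2 and 3 were at an unadjusted p under 0.05 and 0 at the adjusted threshold. As no share of all genes is given for the rescaled fits, these counts are not read as a trait of the collagens.

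Averaged over both stress levels, morphine against saline left 22 collagens higher and 22 lower. At an unadjusted p under 0.05, 2 were higher, again Col14a1 and Col9a3, beside 7.04% of all genes, and 0 lower, beside 0.597%. All genes thus leaned higher at that threshold, and the even split of the collagens is not read as no shift. The Col9a3 difference of 0.23 was 0.20 after quantile normalization (unadjusted p = 0.084) and 0.19 after median centring (unadjusted p = 0.087). Without MSS 1, MSS 2 and SSS 2 neither reached that threshold, with Col14a1 at 0.087 (unadjusted p = 0.45) and Col9a3 at 0.10 (unadjusted p = 0.41). Col13a1 reached an unadjusted p under 0.05 as a lower gene after both rescalings. It was at -0.14 after quantile normalization (limma, unadjusted p = 0.048) and -0.16 after median centring (limma, unadjusted p = 0.032). Without MSS 1, MSS 2 and SSS 2 it was at -0.21, with MSS resting on MSS 3, the highest array for Col13a1. Without MSS 3 its difference was -0.065. The higher genes with the smallest p were Col14a1 (0.25 ± 0.099), Col9a3 (0.23 ± 0.10) and Col8a2 (0.18 ± 0.092), and the lower ones Col13a1 (-0.11 ± 0.069), Col27a1 (-0.072 ± 0.059) and Col19a1 (-0.085 ± 0.069). The balance moved with the scaling, to 15 higher and 29 lower after quantile normalization. It was 11 higher and 33 lower after centring each array on its median. The split of all genes after rescaling is not given, so these counts are not read as a trait of the collagens. The interaction asked whether the morphine difference under severe stress departed from that under mild stress. Its estimate was above 0 for 11 and below 0 for 33 collagens, with 0 of 44 at an unadjusted p under 0.05, beside 3.65% of all genes. No split of all genes is given beside the counts for the interaction, MSM against MSS or SSS against MSS. Those counts are therefore not read as a trait of the collagens. Lowest by p were Col14a1 (-0.35 ± 0.20), Col6a3 (-0.25 ± 0.16) and Col4a1 (-0.18 ± 0.13), and highest Col6a5 (0.17 ± 0.14), Col22a1 (0.098 ± 0.12) and Col5a2 (0.092 ± 0.12).

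The third question was how severe stress differed from mild stress with the same agent, and here most collagens had lower means. In SSM against MSM, 37 of 44 collagens were lower, with a median of -0.11, while 26.4% of all genes were lower, with a median of 0.063. At an unadjusted p under 0.05, 2 were lower, beside 2.26% of all genes, and 0 higher, beside 12.1%. These were the type XI chains, Col11a1 at -0.28 ± 0.10 (unadjusted p = 0.013, adjusted p = 0.26) and Col11a2 at -0.23 ± 0.10 (unadjusted p = 0.037, adjusted p = 0.32), which join type II collagen in cartilage fibrils. The lower genes with the smallest p were Col11a1 (-0.28 ± 0.10), Col11a2 (-0.23 ± 0.10) and Col15a1 (-0.25 ± 0.13), and the higher ones Col22a1 (0.086 ± 0.088), Col23a1 (0.072 ± 0.11) and Col4a4 (0.046 ± 0.071). SSM 1, the array with the lowest collagens, and MSM 3, one of the highest, are on opposite sides of this comparison. The lower count was 36 after quantile normalization and 42 after median centring, with 4 and 7 at an unadjusted p under 0.05. Shares of all genes in these rescaled fits are not given here. The shares above belong to the main fit, so the rescaled counts are not read as a trait of the collagens. Without both SSM 1 and MSM 3, 21 of 44 were lower, with a median of 0.0049. Col11a1 was then at -0.12 (unadjusted p = 0.25). SSM in that fit rested on SSM 2 and SSM 3, the highest array for 9744 of the 19938 genes. The median of all genes in that fit is not given here, so the collagens are not placed against it.

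In SSS against MSS, 26 were lower and 18 higher, with a median of -0.028 and 0 of 44 at an unadjusted p under 0.05, beside 2.85% of all genes. The lower genes were led by Col12a1 (-0.15 ± 0.084), Col6a1 (-0.16 ± 0.097) and Col11a1 (-0.16 ± 0.10), and the higher ones by Col8a1 (0.50 ± 0.36), Col8a2 (0.18 ± 0.13) and Col14a1 (0.14 ± 0.14). For Col11a1 every SSS array lay below every MSS array, by a thin margin (highest SSS 6.449, lowest MSS 6.454). MSS 1 or MSS 2, with low choroid plexus markers, was the lowest of all 15 arrays on each of the higher genes.

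Averaged over saline and morphine, severe against mild stress left 37 of 44 collagens lower, with a median of -0.059, while 29.7% of all genes were lower, with a median of 0.035. At an unadjusted p under 0.05, 5 were lower, beside 2.8% of all genes, and 0 higher, beside 9.28%. They were Col11a1 at -0.22 ± 0.070 (unadjusted p = 0.0064, adjusted p = 0.23), Col15a1 at -0.23 ± 0.089 (unadjusted p = 0.023, adjusted p = 0.34), Col12a1 at -0.14 ± 0.059 (unadjusted p = 0.036, adjusted p = 0.38), Col11a2 at -0.15 ± 0.071 and the FACIT collagen Col16a1 at -0.15 ± 0.069. Highest by p were Col8a2 (0.096 ± 0.092), Col23a1 (0.069 ± 0.076) and Col8a1 (0.22 ± 0.26). All 11 meningeal collagens had lower means (median -0.14), as had all 4 vascular (median -0.048), all 3 neuronal (median -0.085) and all 6 beaded filament collagens (median -0.11). The mean of the 11 meningeal collagens was lowest on SSM 1 (6.54) and SSS 2 (6.63), both severe stress arrays. It was highest on MSM 3 (7.12), a mild stress array. Whether the counts of these lists hold without those arrays was not tested, so they are not read as a shift of whole groups. The 12 meninges and fibroblast markers without collagens were evenly split, 6 higher and 6 lower (median -0.0057). As 29.7% of all genes were lower, this even split is not read as no shift. The lower count over all collagens was 34 after quantile normalization and 39 after median centring, with 5 and 7 at an unadjusted p under 0.05. Here too the shares of all genes in the rescaled fits are not given, and the rescaled counts are not read as a trait of the collagens. Without SSM 1 and MSM 3, 26 of 44 collagens were lower, with a median of -0.011. At an unadjusted p under 0.05, 2 were lower and 1 higher. SSM again rested on SSM 2 and SSM 3 there, and the median of all genes in that fit is not given here. Col11a1 was then at -0.14 (unadjusted p = 0.046), Col15a1 at -0.18 (unadjusted p = 0.070) and Col12a1 at -0.076 (unadjusted p = 0.17). Without MSS 1, MSS 2 and SSS 2, 2 collagens again were lower at that threshold, with Col11a1 at -0.21 (unadjusted p = 0.058), Col15a1 at -0.29 (unadjusted p = 0.036) and Col12a1 at -0.11 (unadjusted p = 0.20).

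Across the 15 arrays, the chains of the meningeal fibrils followed one another. Of 15 gene pairs tested with two-sided permutation tests (100000 resamples, Benjamini-Hochberg over the 15), 7 passed on Pearson's r, and 5 passed after the group means were subtracted (exact permutation within groups). Col1a1 and Col1a2, partners in the type I trimer, gave r = 0.95 and rho = 0.86 (permutation p = 1e-05, the smallest these resamples can give, adjusted 7.5e-05, and p = 0.00011 for rho, adjusted 0.0015). Within groups r was 0.96, and without SSM 1 and SSS 2, the arrays farthest from the Col1a1 median, 0.87. Col1a1 and Col3a1, the chain of type III collagen, gave r = 0.94 and rho = 0.83 (permutation p = 1e-05, adjusted 7.5e-05, and p = 0.00028 for rho, adjusted 0.0015), with 0.97 within groups and 0.85 without the same arrays. Col1a1 also followed Igf2, a growth factor of meninges and choroid plexus, at r = 0.75 and rho = 0.81 (permutation p = 0.0014, adjusted 0.00705, and p = 0.00029 for rho, adjusted 0.0015), with 0.63 without those arrays.

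Other pairs rested on a few arrays. Col4a1 and Col4a2, the head-to-head genes, gave r = 0.78 and rho = 0.50 (permutation p = 0.016 for r, adjusted 0.035, and p = 0.060 for rho, adjusted 0.15), but without SSM 1 and CC 1 r was 0.26, so the relation rests on those arrays. The same held for Col4a5 and Col4a6 (r = 0.65 and rho = 0.61, permutation p = 0.011, adjusted 0.030, and p = 0.018 for rho, adjusted 0.068), where r was 0.23 without SSM 1 and SSM 3, and which did not pass after quantile normalization (r = 0.53, permutation p adjusted 0.067). Col19a1 was low on arrays where the GABA-synthesis gene Gad1 was high (r = -0.65 and rho = -0.36, permutation p = 0.012, adjusted 0.030, and p = 0.18 for rho, adjusted 0.27), and Col25a1 was high there (r = 0.65 and rho = 0.47, permutation p = 0.011, adjusted 0.030, and p = 0.081 for rho, adjusted 0.17). Within groups Col25a1 and Gad1 also passed (r = 0.75, exact permutation p = 0.014, adjusted 0.044), and Col19a1 and Gad1 did not (r = -0.65, exact permutation p = 0.020, adjusted 0.0502). The pooled values were -0.30 and 0.30 without the farthest arrays, SSM 1 and CC 1 for Col19a1 and MSM 3 and SSS 3 for Col25a1. Col4a1 and Pdgfrb, a pericyte receptor, passed within groups (r = 0.59, exact permutation p = 0.015, adjusted 0.044), but not after quantile normalization (r = 0.50, exact permutation p = 0.071, adjusted 0.13), and not pooled (r = 0.56 and rho = 0.51, permutation p = 0.038 and 0.056, adjusted 0.063 and 0.15).

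The 7 remaining pairs did not pass in either form. They were Col3a1 with Col5a2 (r = 0.52 and rho = 0.42), Col4a3 with Col4a4 (r = 0.54 and rho = 0.34), Col6a1 with Col6a2 (r = 0.30 and rho = 0.39), Col1a1 with Dcn (r = 0.49 and rho = 0.33), Col4a1 with Cldn5 (r = 0.56 and rho = 0.09), Col18a1 with Cldn5 (r = 0.28 and rho = 0.09) and Col24a1 with Slc17a7, a glutamate transporter of excitatory neurons (r = -0.08 and rho = 0.03). Their adjusted permutation p for r ran from 0.063 to 0.75. A pair that missed the threshold is not shown to be unrelated.

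**Figure D5:**
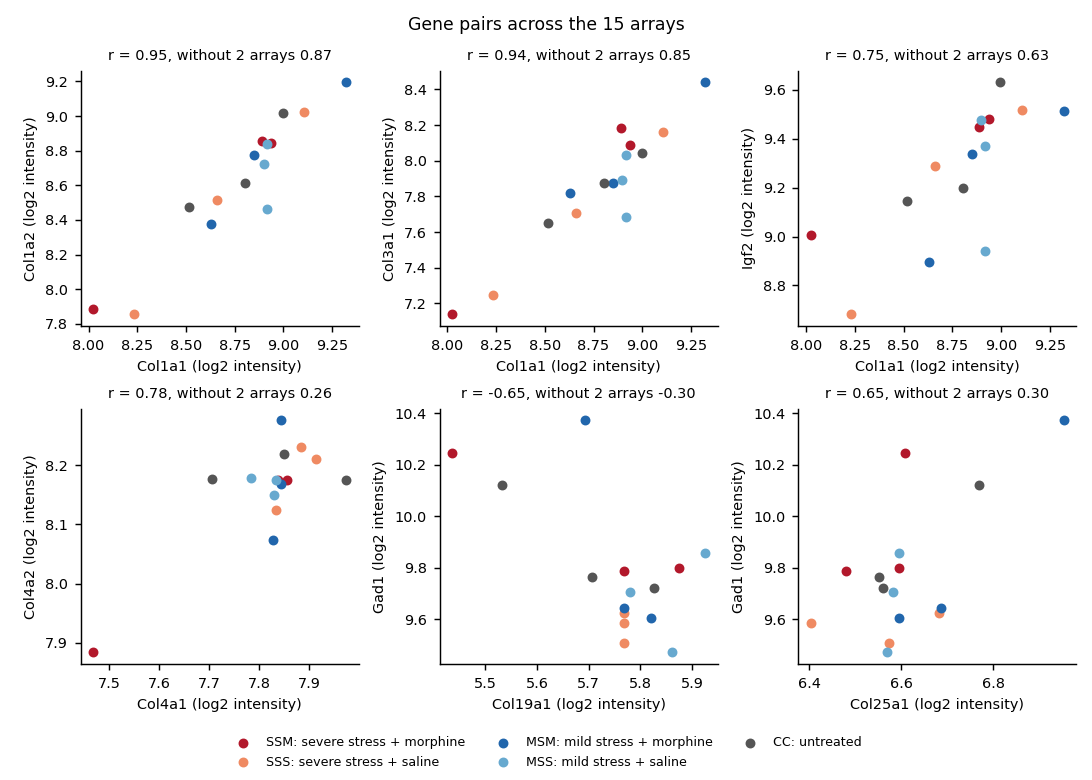
Log2 intensity of 2 genes on the 15 arrays for 6 pairs (a point for each array, coloured by group), with Pearson's r over all arrays and without the 2 arrays farthest from the median of the gene on the horizontal axis. Without them Col1a1 keeps r at 0.87 with Col1a2 and 0.85 with Col3a1, whereas Col4a1 and Col4a2 drop to 0.26.

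Genes that make, bind and remove collagen did not pass the adjusted threshold either. Of 26 measured genes of synthesis and processing, 0 passed the adjusted threshold in any of the 12 comparisons or in the F-test, and 4 had an unadjusted F-test p under 0.05, beside 7.24% of all genes. Colgalt2, which adds galactose to collagen lysines, averaged 5.91 ± 0.055 in SSM, 5.87 ± 0.079 in SSS, 5.66 ± 0.038 in MSM and 5.77 ± 0.075 in MSS, against 5.80 ± 0.026 in CC (limma F-test, unadjusted p = 0.0074, adjusted p = 0.56). P3h3, of the prolyl 3-hydroxylase family, averaged 6.71 ± 0.057 in SSM, 6.81 ± 0.099 in SSS, 6.95 ± 0.034 in MSM and 6.93 ± 0.067 in MSS, against 6.88 ± 0.11 in CC (limma F-test, unadjusted p = 0.021, adjusted p = 0.63). The cross-linking enzyme Loxl3 (unadjusted p = 0.038, adjusted p = 0.68) and the prolyl 3-hydroxylation partner Crtap (unadjusted p = 0.049, adjusted p = 0.69) followed in the same limma F-test. In severe against mild stress the list had 17 higher and 9 lower (median 0.057), beside 70.3% of all genes higher (median 0.035), so the share of the list (65.4%) was near that of the array.

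Collagen receptors (11 measured, among them the discoidin receptor Ddr1, with the smallest limma F-test unadjusted p = 0.15) had 8 higher and 3 lower (median 0.013) in severe against mild stress, a share of 72.7%, also near the 70.3% of all genes. Genes of collagen breakdown and its inhibitors (11 measured, among them Timp2, with the smallest limma F-test unadjusted p = 0.25) had 6 higher and 5 lower (median 0.023). Basement membrane partners of type IV collagen (13 laminins, nidogens and other genes) had 2 higher and 11 lower (median -0.098), where 29.7% of all genes were lower. In SSM against CC, 12 of these 13 were lower (median -0.065), where 23.1% of all genes were lower. The mean of these 13 genes was lowest on SSM 1 and next lowest on SSS 2, both severe stress arrays. On SSM 2 and SSM 3 that mean lay within the range of the CC arrays. Whether the lower counts of this list hold without SSM 1 and SSS 2 was not tested, so they are not read as a shift of whole groups. Agrin (Agrn), a heparan sulfate proteoglycan of basement membranes, averaged 9.49 ± 0.16 in SSM and 9.66 ± 0.077 in CC (limma F-test, unadjusted p = 0.091, adjusted p = 0.74), with SSM 1 its lowest array at 9.31. No gene of these 3 lists passed the adjusted threshold in any comparison.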

How the data were processed

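Total RNA of 15 right hippocampi (3 pups in each of 5 groups, by the treatment given for each sample) was measured on the Affymetrix array Mouse Gene 1.0 ST. The authors deposited log2 intensities made with RMA, per the submitters' processing notes. RMA subtracts background, quantile-normalizes and summarises probes. No label names the software. The table of 35557 probe sets was used as deposited, and 0 columns were left unused. Genes were named from the platform annotation where a probe set had a single symbol (21789 probe sets, 19938 genes), keeping the brightest row of each gene. Number of arrays, not depth, limits the precision, and the median SE of a difference was 0.081.

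The linear models were made in limma 3.58.1 with R 4.3.3, gene by gene (a mean per group, then eBayes) over all 15 arrays, which share 1 estimate of the spread. P-values were two-sided, adjusted by Benjamini-Hochberg over 19938 genes, with a threshold of 0.05. The 12 contrasts were treated groups against CC, morphine against saline, severe against mild stress, their averages and the interaction. The fit was tested on simulated data. Gene pairs used permutation tests in Python 3.11.15 with numpy 2.4.6 and scipy 1.17.1. Levels of different probe sets were not compared.

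The collagens, their classes, the 15 pairs and 10 lists of other genes (129 listed, 124 measured) were chosen with earlier results of these data known. Values on every array were given for 9 chosen collagens and the pair of widest range in 5 classes, save Col8a2, Col26a1 and Col28a1. Col11a1 and Col15a1 were added after their values were seen. For each comparison the 3 members of each sign with the smallest p were named. Of each other list up to 4 genes were eligible by F-test p. Alternatives were quantile normalization, median centring, a filter on dim genes (44 collagens passed), the mean of probe sets, trended and robust eBayes, only the groups compared, blocks, array weights and leaving out arrays. SSM 1 and MSM 3 were left out together for their marker levels, as were MSS 1, MSS 2 and SSS 2.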

Additional observations from a re-analysis of the deposited data

How the results depend on the processing

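Under 26 alternatives the count of collagen genes past the adjusted threshold stayed at 0 in the 12 comparisons and in the F-test wherever it was run. With the H number of the titles as a replicate block it was 0 as well. The estimated correlation of arrays sharing an H number was -0.063 and of those sharing an SS number 0.065. The H number is not stated to mark a shared litter or batch, so it is not taken as a pairing. The smallest adjusted p of a named difference was 0.091 (Col15a1, severe minus mild), which is above 0.05. Of 72 named differences 14 changed sign under some alternative, in 18 of 1872 fits, the largest turned value being 0.12, and none was a called difference.

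Median centring turned Col4a4 in SSM minus MSM to -0.00063, and array weights turned Col8a2 in severe minus mild to -0.0052. Leaving out SSM 1 and MSM 3 put Col9a3 in SSM minus SSS at -0.00049. Leaving out MSS 1, MSS 2 and SSS 2 put Col8a2, Col9a3 and Col14a1 in MSS minus CC at 0.012, 0.12 and 0.047, and Col5a2 in the interaction at -0.0093. With each array left out in turn, Col9a3 in SSM minus SSS ran over -0.00049 to 0.22 (turned without SSM 1), Col18a1 in SSM minus SSS ran over -0.0093 to 0.18 (turned without SSM 3), Col22a1 in SSM minus MSM ran over -0.0083 to 0.15 (turned without SSM 3), Col23a1 in SSM minus MSM ran over -0.082 to 0.21 (turned without SSM 3), Col23a1 in severe minus mild ran over -0.0078 to 0.14 (turned without SSM 3), Col14a1 in SSS minus MSS ran over -0.036 to 0.28 (turned without SSS 3), Col4a4 in SSM minus MSM ran over -0.0059 to 0.11 (turned without MSM 1), Col8a2 in MSS minus CC ran over -0.26 to 0.025 (turned without MSS 1), Col9a3 in MSS minus CC ran over -0.28 to 0.011 (turned without MSS 1), Col8a2 in SSS minus MSS ran over -0.014 to 0.28 (turned without MSS 1) and Col12a1 in MSM minus CC ran over -0.054 to 0.020 (turned without CC 1). The cause of these turns was not tested beyond the arrays named.

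With single arrays left out, 32 to 41 of 44 collagens were lower in severe minus mild. The lower count was 27 to 43 in SSM minus MSM and 12 to 37 in SSM minus CC. The number lower at an unadjusted p under 0.05 in severe minus mild was 1 to 6. Shares of all genes in those fits are not given, so these counts describe how far the collagens moved and no more. The 7 gene pairs called pooled became 6 after quantile normalization, losing Col4a5 with Col4a6, and the 5 called within groups became 4, losing Col4a1 with Pdgfrb. The deposited values carry no depth or background, so dim genes cannot be told from absent ones.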

Other observations

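Many values repeated exactly between arrays. In 15 of the 44 collagens (34.1%) the same value, to all deposited digits, stood on 3 or more arrays, against 26.3% of all genes. Col12a1 had 5.80 on 6 arrays, Col19a1 5.77 on 5 and Col8a2 6.25 on 4. Where such arrays fall into 1 group its spread is near 0, as for Col19a1 in SSS. What made the values repeat was not tested.

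Collagen genes next in order to each other on a chromosome, in the RefSeq table of GRCm38.p6, differed in how closely they followed each other over the 15 arrays, whose pups and processing they share. As a description, r was 0.78 for Col4a1 and Col4a2, 0.72 for Col6a5 and Col6a6 and 0.65 for Col4a5 and Col4a6. It was 0.56 for Col6a4 and Col6a5, 0.54 for Col4a3 and Col4a4 and 0.52 for Col3a1 and Col5a2. For Col9a1 and Col19a1 it was 0.39, and for Col6a1 and Col6a2 0.30. Pairs much farther apart gave at most 0.56 (Col22a1 and Col2a1), then 0.55 for Col27a1 and Col9a2 and 0.54 for Col6a4 and Col7a1. A relation with distance was not tested.

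Interneuron markers, listed beside the neuronal collagens, held the smallest F-test p values outside collagen processing. Somatostatin (Sst) averaged 11.23 ± 0.036 in SSM, 10.92 ± 0.083 in SSS, 10.82 ± 0.22 in MSM and 11.01 ± 0.17 in MSS, against 11.09 ± 0.057 in CC (SD, n = 3 each; limma F-test, unadjusted p = 0.011, adjusted p = 0.56). Neuropeptide Y (Npy) had unadjusted p = 0.017 (adjusted p = 0.61) and reelin (Reln) unadjusted p = 0.049 (adjusted p = 0.69) in the same limma F-test. Of the choroid plexus markers, transthyretin (Ttr), the carrier of thyroid hormone in cerebrospinal fluid, was 8.87 on SSS 2, 9.17 on MSS 1 and 8.99 on MSS 2, against 12.65 to 13.24 on the other 12 arrays. Its F-test p was 0.080 (limma, adjusted 0.74). The mural list had 0 genes past the adjusted threshold in the F-test; its smallest p was that of Notch3 (0.22, adjusted 0.81), and the smallest p of the hippocampal neuron list was that of Wfs1 (0.13, adjusted 0.77).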
